A study of Homo sapiens with 3 samples.

Results

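This comparison set HT29 cells given 5 µM of a linderapyrone derivative for 24 h against HT29 cells given DMSO, the solvent of the compound, for the same time. HT29 is an established human colorectal cancer cell line, here a single line grown in culture. Each condition was 1 culture on 1 single-colour oligonucleotide array, and the remaining array of the series held cells given 20 µM of the same derivative. Doses stand as mM in the sample titles but as µM in the treatment labels and descriptions, and the latter unit was used. No structure of the derivative is given in the labels. The genes described are those whose probe was brighter than the blank and negative control spots on both the DMSO and the 5 µM array, 16075 of the 18639 genes with a named probe. With 1 array on each side no test was possible, so every difference below is a ratio between 2 arrays with no measure of the spread between cultures.

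The endoplasmic reticulum (ER) is where secreted and membrane proteins are threaded through the membrane, folded, given sugar chains and packed into vesicles. BiP, the product of HSPA5, is its main chaperone, and co-chaperones of the DNAJ family and nucleotide exchange factors drive its binding cycle. Cells match ER capacity to load through the unfolded protein response (UPR), in which the membrane sensors IRE1, PERK and ATF6 act through the transcription factors XBP1, ATF4 and cleaved ATF6. ATF6 and XBP1 act on the ER stress response element (ERSE), in which a CCAAT box bound by NF-Y stands a fixed distance from CCACG, and on its shorter relative ERSE-II.

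The promoters of the genes with higher signal at 5 µM are shown because both elements could be looked for in them. The windows searched were RefSeq promoters on GRCh38.p14, from 250 bases before to 50 after each gene's start. ERSE was searched as CCAAT and CCACG with any 9 bases between them, and ERSE-II as ATTGG and CCACG with any 1 base between them, on both strands. A promoter was found for 51 of the 62 genes at least 1.5-fold higher, and ERSE stood in 5 of these (9.80%), against 16 of the 12652 detected genes with a promoter (0.126%). ERSE-II stood in 2 of the 51 (3.92%) and in 12 of the 12652 (0.0948%). The 12 lower genes with a promoter held 0 of either. Over the whole promoter table, windows of the same length held ERSE in 0.0806% and ERSE-II in 0.0549%. The short letters alone were common, with CCAAT in 68.6% of the promoters of higher genes and 36.5% of all detected ones, and CCACG in 66.7% and 46.2%. CCAAT and CCACG lie within ERSE, and CCACG within ERSE-II, so these counts overlap. A match is a description of letters, not evidence of binding. Among the higher genes with ERSE, CRELD2 and HSP90B1 fell short of 1.5-fold under median scaling of the arrays. A second probe of SERP1 had a log2 ratio of 0.06. The 7 matches among the higher genes are printed 5′ to 3′ along the gene, with the match in capitals, and HSP90B1 held 2 copies of ERSE. DNAJB9, which had the highest ratio, held neither element in its window, and its CCAAT and CCACG letters (CGTGG on the other strand) are in capitals.
HERPUD1, chr16:56932000-56932059, plus strand: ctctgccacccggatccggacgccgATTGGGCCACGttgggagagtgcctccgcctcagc
SDF2L1, chr22:21642089-21642148, plus strand: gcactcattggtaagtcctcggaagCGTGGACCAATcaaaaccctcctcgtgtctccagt
FICD, chr12:108515102-108515161, plus strand: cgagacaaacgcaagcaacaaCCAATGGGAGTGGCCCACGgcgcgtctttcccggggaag
HSPA5, chr9:125241371-125241430, minus strand: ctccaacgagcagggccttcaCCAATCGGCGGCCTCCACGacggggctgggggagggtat
SERP1, chr3:150546687-150546746, minus strand: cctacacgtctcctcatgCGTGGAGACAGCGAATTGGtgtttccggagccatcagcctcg
CRELD2, chr22:49918533-49918592, plus strand: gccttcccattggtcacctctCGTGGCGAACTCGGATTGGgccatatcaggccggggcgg
HSP90B1, chr12:103930216-103930339, plus strand: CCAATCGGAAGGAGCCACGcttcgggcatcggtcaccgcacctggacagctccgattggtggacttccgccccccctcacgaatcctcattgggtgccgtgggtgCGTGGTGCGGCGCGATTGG
DNAJB9, chr7:108569790-108569857, plus strand: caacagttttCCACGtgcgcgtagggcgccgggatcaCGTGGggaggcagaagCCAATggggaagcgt

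Most detected genes with these elements were not past 1.5-fold. Of 28 detected genes with ERSE or ERSE-II, 20 had a log2 ratio above 0 and 7 were at least 1.5-fold higher, and their median log2 ratio was 0.11, against 0.0043 over all detected genes. Among the others, named after their values were seen, the BiP-related chaperone HYOU1 had a log2 ratio of 0.45 and the lectin chaperones CALR and CANX had 0.20 and 0.12. XBP1, a UPR transcription factor, had 0.25, and the lowest was ZNF143, a zinc finger transcription factor with ERSE-II, at −0.30.

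The arrays detected similar shares of probes, but the 5 µM array was dimmer before normalization. The median spot signal was 117 in DMSO and 107 at 5 µM, the detection thresholds were 82.5 and 79.4, and 86.2% and 85.6% of 24460 gene probes were detected. Markers of colon epithelium were detected on both arrays for 14 of the 14 on the array, including keratins, CDX factors, villin and EPCAM. Of the 14, CDX1, CDX2, CDH17 and CEACAM5 were not more than 2 times as bright as the blank level on both arrays. The markers' summed signal above the blank spots was 77284 in DMSO and 59667 at 5 µM before normalization. Most of it came from the brightest marker, at 56135 and 43202. Positive control spots, 24 of each of 2 kinds, were also dimmer at 5 µM, with blank-subtracted mean log2 ratios of −0.47 (SD 0.13) and −0.34 (SD 0.15) over the spots of 1 array pair. Of the markers of other cell types, 5 of 9 fibroblast, 4 of 6 endothelial, 6 of 6 neural, 8 of 9 hepatocyte and 5 of 7 blood and immune genes were detected in DMSO. Their medians lay between 84.6 and 99.8, near the threshold. The genes more than 2 times as bright as the blank level on both arrays were LYZ, an antibacterial enzyme also made by gut epithelium, at 15819 in DMSO, the plasma proteins SERPINA1 at 1359 and APOH at 769, and DCN, a matrix proteoglycan, at 231.

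Across the genome the arrays were close to each other. Ratios were taken after background correction and quantile normalization, on the log2 scale of signal plus an offset of 50, which shrinks the ratios of dim genes. From the 1st to the 99th percentile they ran from −0.37 to 0.40. The standard deviation of a single ratio, from different probes of the same gene, was 0.11 over 2124 genes and 0.14 over the 613 with 2 bright probes, which covers the measurement and not the culture. At least 2-fold, 9 genes differed (0.056%), of which 8 were higher (0.0498% of those detected) and 1 was lower (0.00622%). At least 1.5-fold, 62 genes were higher (0.386%) and 14 lower (0.0871%). Scaling each array to a common median in place of quantiles turned that split to 28 higher and 137 lower. The median log2 ratio was then −0.17 over the 6807 genes brighter than 2 times the blank level on both arrays. Over the others it was 0.04. The list medians given below under median scaling include this shift. The plot of ratio against level shows the genes past 1.5-fold over most of the brightness range, with none among the very brightest.

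**Figure D1:**
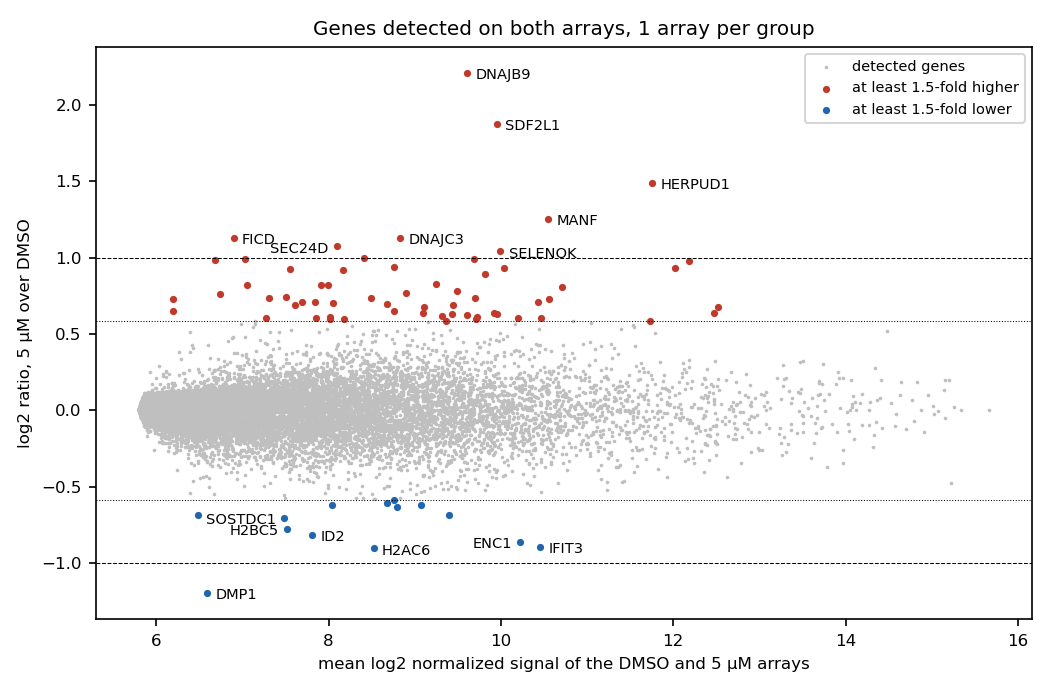
Log2 ratio of 5 µM to DMSO (vertical axis) against the mean log2 normalized signal of both arrays (horizontal axis), 1 point per gene for 16075 genes. Dotted lines mark 1.5-fold and dashed lines 2-fold; 62 genes lie at or above the upper dotted line, 14 at or below the lower one, and DNAJB9 is the highest.

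Genes of the ER stood at the top of the ratios. Of the 62 at least 1.5-fold higher, 22 (35.5%) belonged to the 9 lists of ER function, which held 206 detected genes, 1.28% of all. All 8 genes past 2-fold were among them, and 160 of the 206 had ratios above 0, with a median log2 ratio of 0.13, against 52.0% above 0 over all genes. Of the 14 lower genes, 0 were in these lists. The lists were chosen with earlier results of these data known, so the shares are described and not tested. The 62 comprised 60 protein-coding genes and 2 long noncoding RNAs, and 34 were in no list at all.

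The chaperone cycle of BiP gave the highest ratios of any list. DNAJB9, an ER co-chaperone of BiP, read 363 on the DMSO array, 1679 on the 5 µM array and 2611 on the 20 µM array. SDF2L1, which works with ER co-chaperones, gave 519, 1903 and 2143, and MANF, a secreted protein that binds BiP, gave 970, 2310 and 2100. FICD, the enzyme that attaches AMP to BiP and takes it off, was dim at 80.7, 176.8 and 227.3, and DNAJC3, another ER co-chaperone of BiP, gave 308, 675 and 751. In DNAJB9, SDF2L1, FICD and DNAJC3 the 20 µM array was above the 5 µM array, while in MANF it was below. Both treated arrays share the single DMSO array, so the ratios of the doses are not independent. In the BiP list, 10 of 18 members were at least 1.5-fold higher and 16 of 18 had ratios above 0. The list's median log2 ratio was 0.61, and over the settings that used the spot signal or the authors' values it lay between 0.41 and 0.74.

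HSPA5 itself, read by a dim probe, had signals of 141, 236 and 214, a log2 ratio of 0.74. CRELD2, an ER resident induced with chaperones, had 321, 520.5 and 569 (log2 ratio 0.70). DNAJB11, another BiP co-chaperone, had 0.63, DNAJC25, a DNAJ protein, had 0.92, and HSP90B1, the ER member of the HSP90 family, had 0.59. As processed here, all of these were below the ratios of DNAJB9 and SDF2L1 by more than 0.9. The offset shrinks the ratios of dim genes such as HSPA5 and DNAJC25, so the gap depends on the setting. Over the settings other than the local background column, DNAJC25 lay between 0.80 and 1.31 and SDF2L1 between 1.65 and 1.99. In the list of cytosolic heat shock proteins 2 of 21 members were at least 1.5-fold higher, ZFAND2A, a stress-induced zinc finger protein, at 0.94 and HSP90AB1, the constitutive cytosolic HSP90, at 0.67. HSPA4, an exchange factor for cytosolic HSP70, had −0.50, and HSPA1A, an inducible HSP70 with a near-identical copy, had 0.44.

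**Figure D2:**
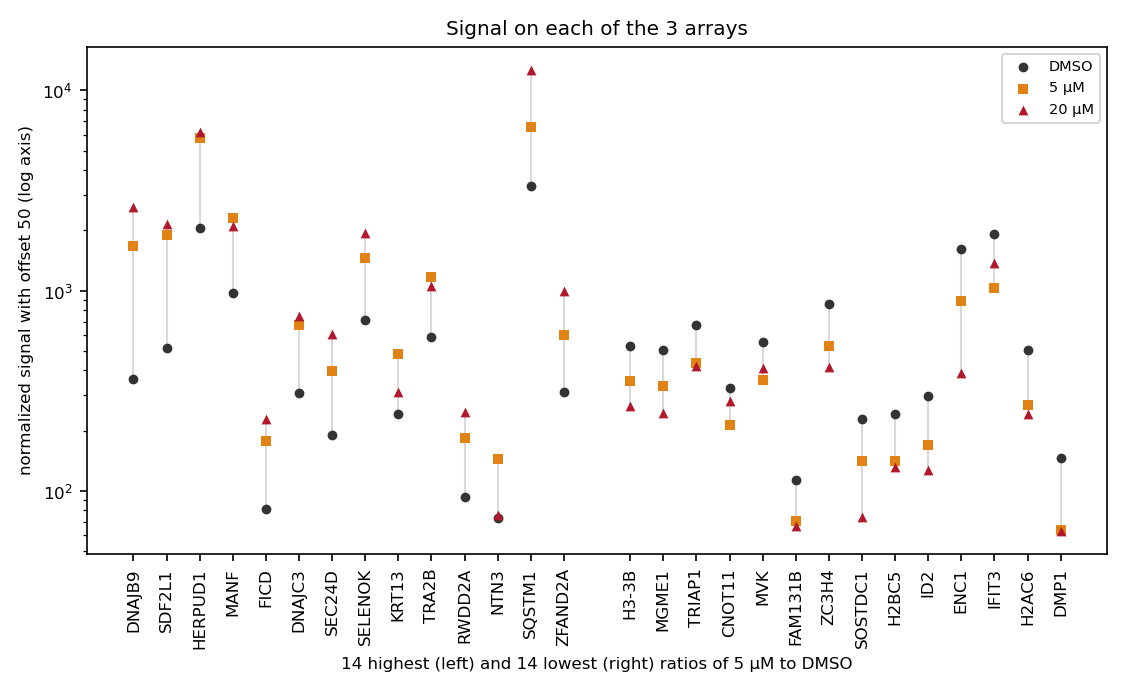
Normalized signal with its offset of 50 (log axis) on the DMSO, 5 µM and 20 µM arrays for the 14 highest and 14 lowest ratios of 5 µM to DMSO, 1 point per array. DNAJB9 stands at 363, 1679 and 2611, while NTN3 stands at 72.9, 144.2 and 75.9 and ENC1 at 1614, 889 and 390.

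Of the genes of ER-associated degradation, which pulls misfolded proteins out of the ER for the proteasome, 4 of 32 were at least 1.5-fold higher. HERPUD1, a membrane protein that organizes the degradation complex, had signals of 2063 (DMSO), 5786 (5 µM) and 6218 (20 µM), the brightest gene past 2-fold. The others were SELENOK (711, 1462 and 1939), SELENOS (661, 1226 and 1748) and DERL2 (456, 809 and 954), which are membrane components of the same machinery. UBE2J1, a ubiquitin-conjugating enzyme of the ER membrane, and VCP, the ATPase that extracts the substrates, had log2 ratios of 0.49 and 0.44. The degradation list was uneven, with a median of 0.07 that turned to −0.05 under median scaling. Proteasome subunits had a median of −0.02 (−0.25 under median scaling), and 0 of 28 were at least 1.5-fold apart, against 0.473% of all detected genes.

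Among the UPR sensors and stress transcription factors, 1 of 21 passed 1.5-fold. DDIT3, which encodes the proapoptotic factor CHOP, was already bright in DMSO and had signals of 3015, 5761 and 7454. EIF2AK3, which encodes the sensor PERK, lay just under the line with 116, 173 and 234 (log2 ratio 0.58). XBP1 had 0.25, ATF4 0.23, and PPP1R15A, the phosphatase subunit that reverses PERK's block of translation, 0.23. The list's median of 0.12 turned to −0.03 under median scaling. Lists of genes downstream of ATF4 had small ratios at this dose. At least 1.5-fold apart were 0 of 28 amino acid response genes and 0 of 19 cytosolic aminoacyl-tRNA synthetases. Over all detected genes the share was 0.473%, so these counts tell little in lists this short. Ratios were above 0 for 71.4% of the response genes and 84.2% of the synthetases, against 52.0% of all genes. The medians of these lists, 0.07 and 0.13, turned to −0.10 and −0.10 under median scaling. WARS1, the tryptophanyl-tRNA synthetase, had the highest ratio of the synthetases at 0.46, and SLC7A1, a transporter of cationic amino acids, that of the response genes at 0.32.

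Genes of transport out of the ER had moderate ratios spread over many members. SEC24D, a cargo-binding subunit of the COPII coat, had signals of 189 (DMSO), 398 (5 µM) and 610 (20 µM). TMED7, a cargo receptor, had a log2 ratio of 0.62, and PREB, SEC31A and SEC23B, which load or build the coat, had 0.54, 0.50 and 0.47. Of the 23 COPII members 20 were above 0, and the list's median of 0.28 came down to 0.03 under median scaling. In the list of COPI and retrieval to the ER, 18 of 19 were above 0. The list had 0 members past 1.5-fold, against 0.473% of all detected genes. It was led by BET1 and GOSR2, SNAREs of ER-to-Golgi transport, at 0.52 each, and by the coat subunit COPB1 at 0.45, with a median of 0.20 that turned to −0.01 under median scaling.

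SEC61A1, the channel through which proteins enter the ER, had signals of 955, 1454 and 1830, a log2 ratio of 0.61. TRAM1, an accessory translocon protein, had 0.58, SSR2 of the translocon-associated complex 0.53 and SEC11C, a signal peptidase subunit, 0.50. The translocon list had 1 of 21 members past 1.5-fold and a median of 0.22, which turned to −0.01 under median scaling. Of the oxidoreductases that form disulphide bonds, PDIA4 passed 1.5-fold with 1150, 1751 and 1678. P4HB and TXNDC5 of the same family had 0.50 and 0.49, and the median over 22 members was 0.09, or −0.03 under median scaling. In N-glycan synthesis ALG2, a mannosyltransferase of the lipid-linked sugar, had 367, 626 and 760.5, as the 1 of 30 members past 1.5-fold, and GMPPB, which makes GDP-mannose, had 0.48. The calcium-binding proteins NUCB2 (191, 338 and 515) and CALU (777, 1208 and 1859) were the 2 of 20 members of ER calcium handling that passed. The medians of the last 2 lists, 0.10 and 0.04, turned to −0.07 and −0.0019 under median scaling.

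**Figure D3:**
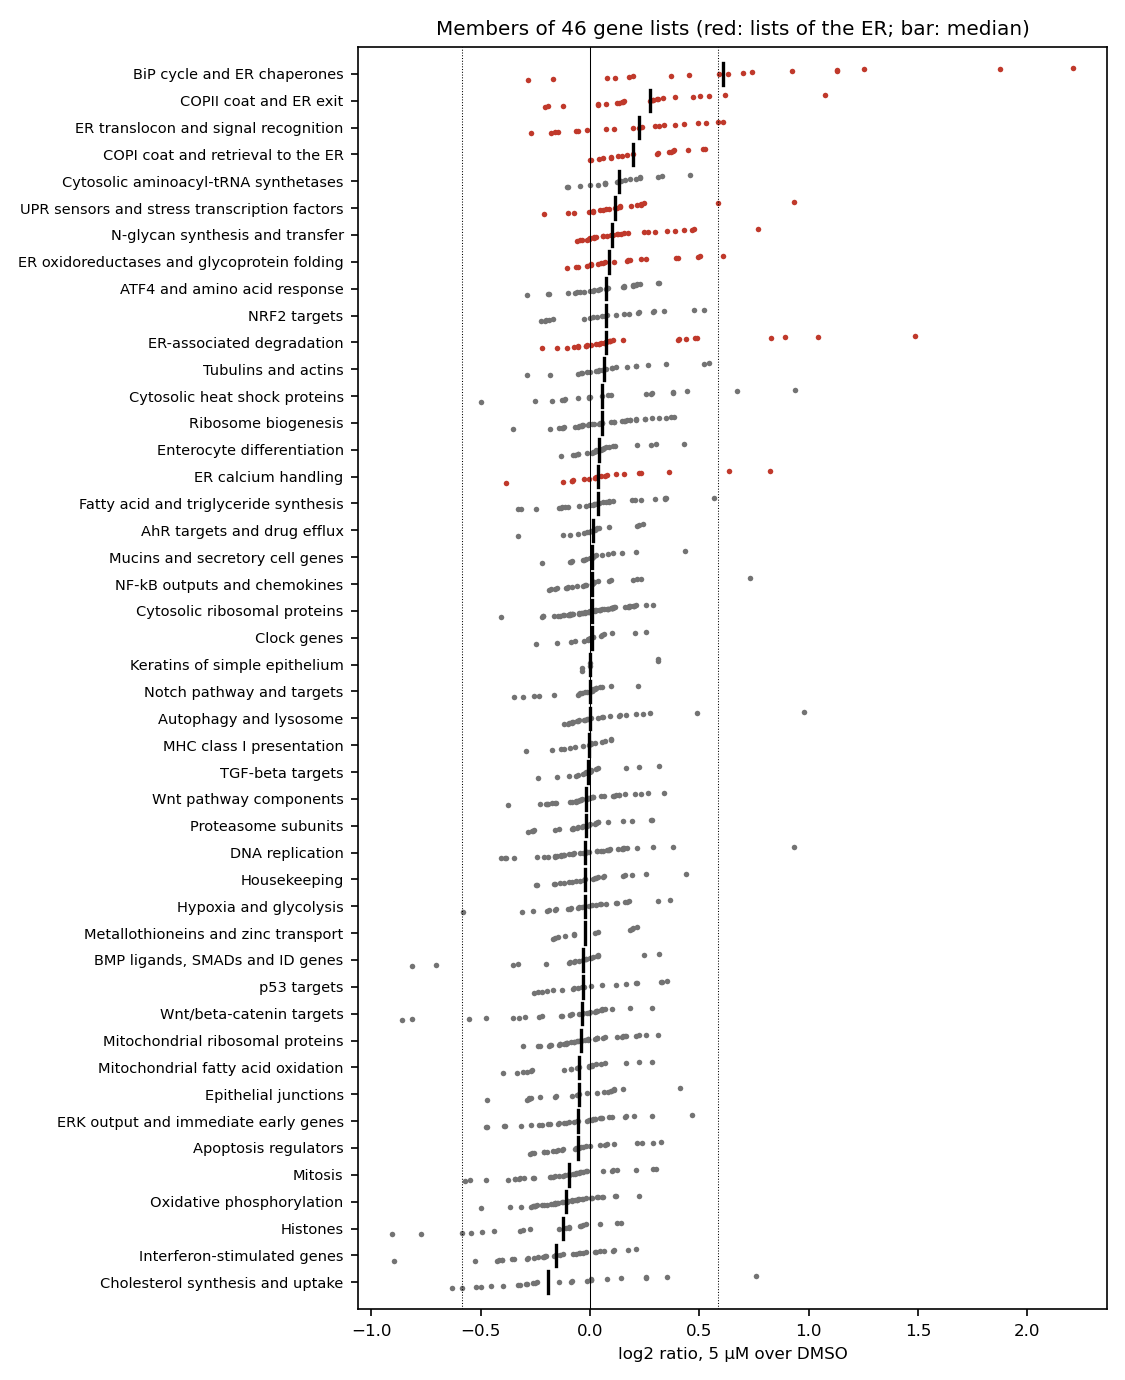
Log2 ratio of 5 µM to DMSO (horizontal axis) for every detected member of the 46 gene lists, 1 point per gene, with a bar at each list's median and dotted lines at 1.5-fold. Lists of ER function are red; the BiP list has the highest median, 0.61, and the cholesterol list the lowest in this setting, −0.19.

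Outside the ER lists, the genes just under 2-fold were of mixed function. KRT13, a keratin of stratified epithelium, had signals of 241 (DMSO), 481 (5 µM) and 313 (20 µM), the first gene below the 2-fold line at a log2 ratio of 0.99, while SELENOK at 1.04 was the last above it. TRA2B, a splicing regulator, had 585, 1163 and 1049, and CDC6, a replication licensing factor, had 757, 1445 and 1566. RWDD2A had 92.8, 184.2 and 248.3, and PRRC1 had 210.1, 396 and 428. SQSTM1, the autophagy receptor p62, was bright on all arrays with 3318, 6546 and 12630. Its list of autophagy and lysosome genes had a median of −0.0023 with SQSTM1 included and 13 of 26 members above 0. MAP1LC3B, an autophagosome membrane protein, came next at 0.49. CDC6 likewise stood alone, since 1 of 43 replication genes passed 1.5-fold and the median was −0.02 (−0.14 under median scaling), with PCNA, the polymerase clamp, at −0.39 and TYMS, the thymidylate synthase, at −0.39.

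Some of the higher genes were near their DMSO level at 20 µM. NTN3, a netrin, had signals of 72.9 (DMSO), 144.2 (5 µM) and 75.9 (20 µM). ABCG1, a sterol exporter, had 82.3, 139.3 and 71.6. LCN2, an iron-binding protein of innate defence, had instead 1169, 1939 and 2985. Both NTN3 and ABCG1 were dim, and the log2 ratio of NTN3 in the authors' value table was 2.10 in place of 0.98.

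At the 1.5-fold line the values were continuous. HSP90B1 (0.59) and STAMBPL1, a deubiquitinase named for its place there (0.59), were the last inside, and TRAM1 and EIF2AK3 (both 0.58) were the first outside. On the lower side H3-3B (−0.59) was the last inside and INSIG1, a brake on cholesterol synthesis, the first outside (−0.58). Of the 62 higher genes 54 were brighter than 2 times the blank level on both arrays, as were 12 of the 14 lower ones.

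The lower genes did not gather in 1 list. DMP1, a matrix phosphoprotein of bone and tooth, had signals of 146 (DMSO), 63.7 (5 µM) and 63.2 (20 µM), and both treated values lay close to the offset of 50. IFIT3, an interferon-induced antiviral protein, had 1914, 1029 and 1365, and ENC1, an actin-binding target of Wnt signalling, had 1614, 889 and 390. ID2, an inhibitor of helix-loop-helix factors, had 297, 169 and 127, and SOSTDC1, which binds and blocks BMP ligands outside the cell, had 229, 141 and 74.1. In ENC1, ID2 and SOSTDC1 the 20 µM array was lower again, while in IFIT3 it lay between DMSO and 5 µM. ZC3H4, a zinc finger protein that ends noncoding transcription, had 855, 531 and 416. FAM131B had a log2 ratio of −0.68, MVK, the mevalonate kinase, −0.63, CNOT11 of the deadenylase complex −0.62, TRIAP1, a mitochondrial lipid carrier, −0.62, and MGME1, a mitochondrial DNA nuclease, −0.61.

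Histone genes supplied 3 of the 14 lower genes. These were 15% of the 20 detected histone genes, against 0.0871% lower over all detected genes, in a list chosen with earlier results known. H2AC6 had signals of 503 (DMSO), 269 (5 µM) and 242 (20 µM), H2BC5 had 241, 141 and 131, and H3-3B, a replacement H3 histone, had 530.1, 353 and 264. H1-2 and H2BC8 had log2 ratios of −0.55 and −0.50. Of 20 histone genes 3 were above 0, and the median of −0.13 lay between −0.38 and −0.11 over the settings other than the local background column. Histone genes are near-identical to each other, and which copies a probe reads was not tested.

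Interferon-stimulated genes were mostly a little lower at 5 µM, with 8 of 35 (22.9%) above 0, against 52.0% of all detected genes. Their median was −0.16 (−0.37 under median scaling, where genes brighter than 2 times the blank level had −0.17). IFIT2 had a log2 ratio of −0.53, the transcription factor IRF1 −0.42, PARP9 −0.42 and OAS3, a sensor of double-stranded RNA, −0.40. At 20 µM the list's median against the same DMSO array was 0.44. OAS3, for example, had signals of 3435, 2598 and 4144, in the same order.

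Cholesterol synthesis and uptake had a median of −0.19, with 9 of 26 members above 0. This was the lowest of the 46 lists as processed here, but under median scaling the interferon (−0.37), histone (−0.36) and oxidative phosphorylation (−0.36) lists were below it (−0.35). The histone list was also below it with the blank subtracted (−0.26 and −0.20), with the stricter filter (−0.38 and −0.25) and in the authors' table (−0.33 and −0.28). The values were INSIG1 at −0.58, FDPS, the farnesyl diphosphate synthase, at −0.52 and MSMO1, a sterol oxidase, at −0.50, beside MVK and against ABCG1 above. MSMO1 had signals of 714, 506 and 845, so its 20 µM value was above DMSO, while FDPS had 2893, 2012 and 2198. Oxidative phosphorylation genes had 9 of 44 (20.5%) above 0, against 52.0% of all detected genes. Their median was −0.11 (−0.36 under median scaling, where genes brighter than 2 times the blank level had −0.17). NDUFA6, a subunit of the first respiratory complex, had −0.50. Housekeeping genes, 23 in number, had a median of −0.02, or −0.23 under median scaling.

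Mitosis genes had 7 of 38 members (18.4%) above 0 at 5 µM, against 52.0% of all detected genes. Of these 38 members 0 were past 1.5-fold, against 0.473% of all. Their median was −0.10, or 0.11 with the local background column. Under median scaling it was −0.31, where genes brighter than 2 times the blank level had −0.17. DLGAP5, a spindle protein, had signals of 557 (DMSO), 374 (5 µM) and 159 (20 µM), HMMR, another spindle protein, had 625, 426 and 223, and NDC80, a kinetochore subunit, had 1009, 725 and 385. At 20 µM the list's median was −0.93 against the same DMSO array. NRF2 targets also had most of their difference at the higher dose, with a median of 0.07 at 5 µM (−0.15 under median scaling) and 0.46 at 20 µM. GCLC, which makes the first intermediate of glutathione, had 306, 440 and 971.

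Linderapyrone is known as an inhibitor of Wnt signalling, in which stabilized beta-catenin acts with TCF factors on target genes. Of 31 detected Wnt targets, 2 (6.45%) were at least 1.5-fold lower, ENC1 and ID2, against 0.0871% of all detected genes. At least 1.5-fold higher were 0, against 0.386%, and 11 (35.5%) were above 0, against 52.0%. This list too was chosen with earlier results of these data known. The list's median was −0.03, against 0.0043 over all genes. It moved to −0.09 under median scaling, where all genes had −0.02 and the brighter genes of the stricter filter −0.17. In the authors' value table it was −0.15, against −0.03 over all genes and −0.06 over the brighter ones. Over the brighter genes of the stricter filter it was −0.22, where the median of all genes was 0.0058. The feedback targets AXIN2 (99.7 in DMSO, 91.2 at 5 µM and 87.0 at 20 µM), RNF43 (79.8, 74.9 and 74.3), NKD1 (64.1, 61.9 and 63.1) and ZNRF3 (96.6, 95.7 and 86.3) were dim. LGR5 (124, 126 and 121) and ASCL2 (120.4, 124 and 116), which mark intestinal stem cells, were also dim. At 5 µM all of these genes but AXIN2 differed from DMSO by less than 0.11, the spread between probes. AXIN2 was lower by more than 0.11 but by less than the 0.14 of bright probes. The scale shrinks the ratios of dim genes. Over the settings other than the local background column, AXIN2 lay between −0.30 and −0.10 and RNF43 between −0.30 and −0.07. ZNRF3 lay between −0.06 and −0.01, while NKD1, LGR5 and ASCL2 lay on both sides of 0. Lower values were seen in SP5, a transcription factor that feeds back on Wnt targets (217, 148 and 115), in the ion transporter SLC12A2 (746, 536 and 335), in DKK1, a secreted Wnt antagonist (400, 319 and 238), and in SOX9 (266, 216 and 143). MYC had 561, 683 and 634.5, and CCND1, the cyclin D1 gene, had 325, 279 and 288. The remaining targets, among them MMP7, CD44, LEF1, NOTUM and EPHB3, had log2 ratios between −0.35 and 0.18. Components of the pathway had a median of −0.02 (0.0014 under median scaling), with 0 of 38 past 1.5-fold, against 0.473% of all detected genes.

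A second probe gave a partial check on the ratios. Of the 76 genes past 1.5-fold, 12 had another detected probe, all named here for that reason, and in 11 it had the same sign. In 4 it again passed 1.5-fold, with log2 ratios of 1.13 for SELENOK, 0.93 for NUCB2, 0.69 for ALG2 and −0.74 for H3-3B. The other probe of PRRC1 gave 0.57, of MGME1 −0.43, of SOSTDC1 −0.32 and of the splicing factor CLASRP 0.30. For SERP1, which protects membrane proteins during stress, the probe that stood for the gene gave 0.81 and the other, dimmer probe 0.06. TRIM27 and ARMCX3 had second probes at 0.14 and 0.07, and CZIB had 0.60 and −0.22, so the ratios of SERP1, TRIM27, ARMCX3 and CZIB depend on the probe.

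**Figure D4:**
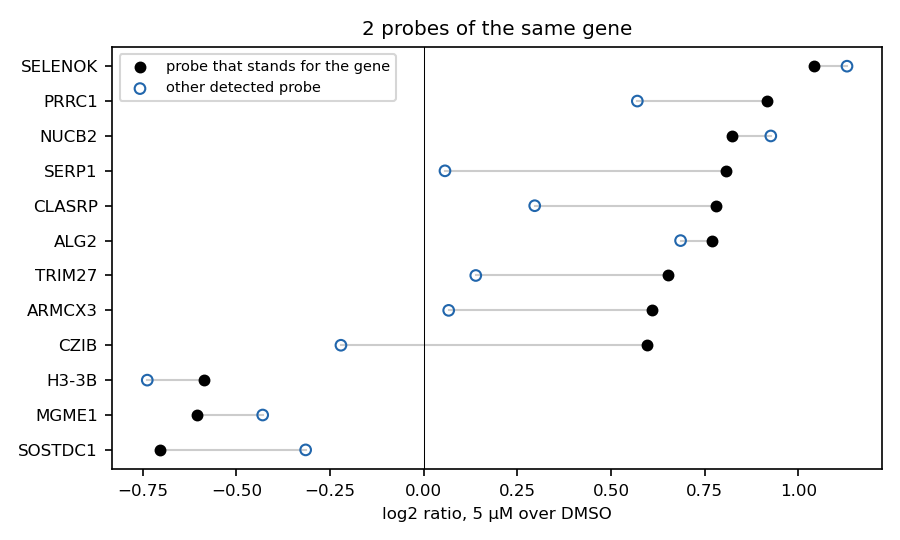
Log2 ratio of 5 µM to DMSO (horizontal axis) by the probe that stands for the gene (filled) and by its other detected probe (open), for the 12 genes past 1.5-fold with another probe. The pairs of SELENOK, NUCB2, ALG2 and H3-3B lie past 1.5-fold on both probes, and those of CZIB lie on both sides of 0.

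On the 5 µM array alone 225 genes were detected, and on the DMSO array alone 318. For these a bound was taken on the normalized scale, from the array that detected the gene to the lowest detected level of the other. RBP7, a retinol-binding protein, had spot signals of 79.1 (DMSO), 112 (5 µM) and 80.4 (20 µM) before normalization. Its normalized value at 5 µM was 91.9 against a bound of 55.6 in DMSO, at least 1.65-fold higher. MPPED1 had spot signals of 124, 79.0 and 80.6, and a normalized value of 92.9 in DMSO against a bound of 55.8 at 5 µM, at least 1.67-fold lower. These were the 2 genes with a bound past 1.5-fold. On the same scale the anion exchanger SLC26A3 (79.3 against 55.6) was at least 1.43-fold higher and the ER oxidase ERO1B (73.9 against 55.6) at least 1.33-fold.

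How the ratios depend on background correction and scaling bears on each gene above. The plot of list medians by setting leaves out the local background column. In the 7 settings drawn the BiP and COPII lists were above 0 and the histone, interferon, cholesterol and oxidative phosphorylation lists below 0, while the translocon, COPI and synthetase lists were on the other side of 0 under median scaling. By the authors' values, 55 of the 62 higher genes and 14 of the 14 lower ones were again at least 1.5-fold apart. PDIA4 (0.54), SEC61A1 (0.55) and HSP90B1 (0.52) were short of it there. Under median scaling only 28 of the 62 higher genes were again past 1.5-fold. Those that fell short included ALG2, CALU, CRELD2, DNAJB11, HSP90AB1, HSP90B1, LCN2, PDIA4, SEC61A1 and TMED7. The scanner files also hold a local background column, which tracked the spot's own signal with a Spearman correlation across spots of 0.967 in DMSO and 0.962 at 5 µM. With it subtracted, ratios of different probes of 1 gene no longer went together (correlation −0.060 across 2017 genes, which are not independent replicates, against 0.43 without it). The ratios of SDF2L1 (−1.56), PDIA4 (−1.32), SEC61A1 (−0.77), CRELD2 (−0.40), DDIT3 (−0.39) and KRT13 (−0.28) then turned below 0, and those of 8 lower genes turned above 0. The medians of the histone (0.03), interferon (0.05) and cholesterol (0.00074) lists were also above 0 with it, that of oxidative phosphorylation was −0.02, and that of the BiP list came down to 0.28.

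**Figure D5:**
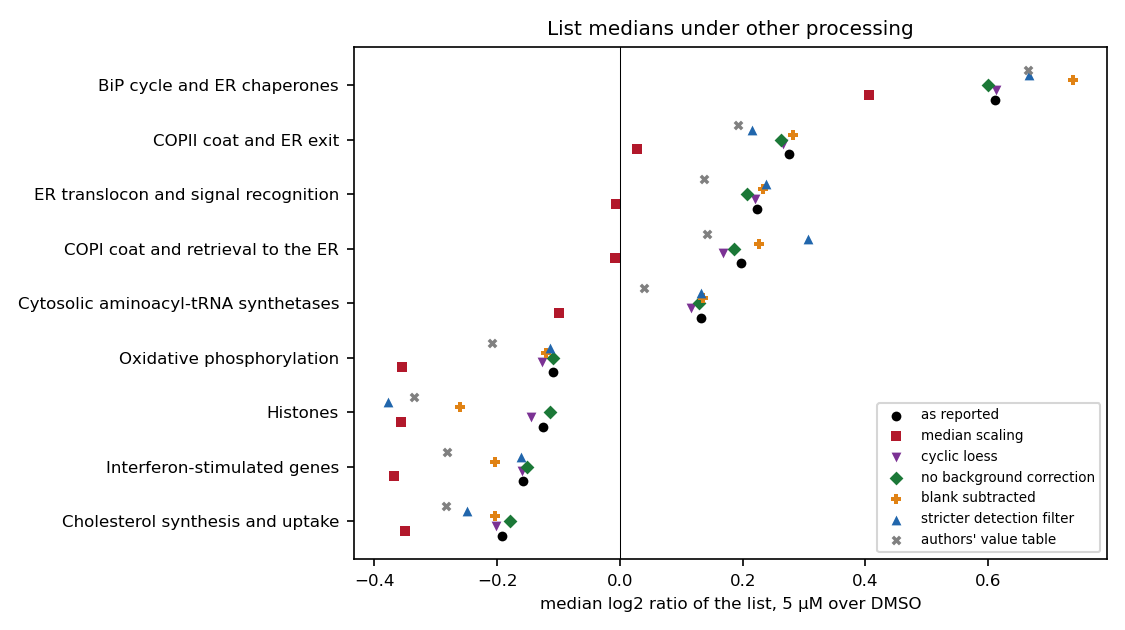
Median log2 ratio of 5 µM to DMSO (horizontal axis) of 9 gene lists under 7 ways of processing, 1 symbol per setting. The BiP list stays between 0.41 and 0.74 and COPII comes down to 0.03 under median scaling, where the translocon, COPI and aminoacyl-tRNA synthetase lists lie below 0.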

How the data were processed

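Total RNA of 3 HT29 cultures was amplified as amino allyl aRNA, labelled with Cy5 and hybridised to Toray arrays, per the labels' protocols. The deposited scanner files give each spot's median intensity on a linear scale; per the file headers each array was read at 3 gains. The authors' deposited value table also holds an intensity per probe, with a median of 25 on each array; its scaling is not stated in the labels or headers.

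Spot intensities were corrected with normexp (offset 50) on all spots in limma 3.58.1 (R 4.3.3), and their log2 values were quantile normalized across the 3 arrays, gene probes only. The local background column, which the design had named first, was kept as an alternative, because it followed the spot signal. A probe was detected above the mean plus 2 SD of 480 blank and negative control spots, with 5% trimmed at each end. Probe names came from the platform annotation: 21707 of 24460 gene probes had 1 symbol, 0 had several, 2753 had none, and 21675 matched RefSeq (GRCh38.p14). The probe detected on most arrays, then the brightest, stood for a gene. Further steps used pandas 2.3.3 and numpy 2.4.6 under Python 3.11.15, and matplotlib 3.10.9 for plots. The normalization as reported was tested on simulated data, in which 2-fold changes were given to bright probes only. Changes in dim genes and the choice between settings were not covered. Precision is limited by the number of arrays, and nothing measures the spread between cultures.

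The genes, the 46 lists and the alternatives were chosen with earlier results of these data known. Named genes were the 20 highest and 20 lowest ratios, all past 2-fold, up to 5 members per list, all ER list members past 1.5-fold, up to 6 genes in each direction seen on 1 array only, the detected Wnt targets and genes whose promoters are shown. Genes on Y, XIST and TSIX were left out of the genes detected on 1 array.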

Additional observations from a re-analysis of the deposited data

How the results depend on the processing

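The alternatives were median scaling, quantiles over 2 arrays, cyclic loess, no background correction, subtraction of the blank level with a floor of 5, the local background column, an offset of 16, a stricter detection filter at 2 times the blank mean, no detection filter, the mean of a gene's detected probes, and the authors' value table as log2 of the value plus 1. The 8 genes at least 2-fold higher became 5 under median scaling, 38 with the blank subtracted, 271 with the background column, 19 with the offset of 16 and 28 in the authors' table. The 1 gene at least 2-fold lower became 4, 24, 389, 2 and 21 under these, and 0 both with no background correction and with the stricter filter. The 62 genes at least 1.5-fold higher became 28 under median scaling, 193 with the blank subtracted, 695 with the background column and 161 in the authors' table. The 14 at least 1.5-fold lower became 137, 278, 751 and 277 under these, 22 with cyclic loess and 41 with the offset of 16. A smaller offset or none leaves dim genes unshrunk by construction; other causes were not tested. Of the 62 higher genes, 28 were shared under median scaling, 59 with loess, 52 without background correction and 26 with the background column; of the 14 lower, 14, 14, 10 and 0 were.

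Signs turned only with the background column among the named genes past 1.5-fold: CRELD2 −0.40, DDIT3 −0.39, KRT13 −0.28, PDIA4 −1.32, SDF2L1 −1.56, SEC61A1 −0.77, ENC1 0.38, H2AC6 0.072, H3-3B 0.27, IFIT3 0.60, MGME1 0.66, MVK 0.84, TRIAP1 0.011 and ZC3H4 1.05. The cause was not tested. Genes near the detection threshold have ratios set mostly by the offset. No paired analysis was possible because each group held 1 array and the labels carry no replicate numbers.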

Other observations

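Genes in no list made up 34 of the 62 higher ones, and some had large differences between the doses, all named after their values were seen. NIBAN1, described as a stress-responsive protein, had normalized signals of 182 (DMSO), 321 (5 µM) and 952 (20 µM). The host gene of microRNA miR-22, MIR22HG, had 100, 177 and 294, and ZFAS1, a noncoding RNA that hosts small nucleolar RNAs, had 4554, 7069 and 10195. DPY19L2, a glycosyltransferase relative of the testis, had 56.8, 94.2 and 56.3, and SCG2, a secretogranin of neuroendocrine granules, had 58.4, 91.6 and 59.1, so that both were dim and near their DMSO level at 20 µM. CBFB, the partner of RUNX factors, had 628, 970 and 778.

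Probes with no gene name were 2290 among those detected on both arrays. Of these, 6 were at least 1.5-fold higher and 0 lower, with log2 ratios from −0.56 to 1.29 and a median of 0.01.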
